A study of Mus musculus with 32 samples.

Results

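The genes described are 10 intermediate filament genes, chosen by symbol and not by any measured value: Gfap, Vim, Nes, Synm, Prph, Nefl, Nefm, Ina, Lmna and Lmnb1. They are 10 of the 38740 gene symbols in the expression table, and each had 1 line there. The choice was made with earlier results of these data known. RNA was measured in the subventricular zone, a germinal zone of the mouse forebrain, at postnatal day 21. The 32 libraries were 28 single cells and 4 pools of 10 cells. The labels gave no strain, genotype, treatment, sort or animal for either group, so the 28 cells count as 1 sample, and values are described without p-values. The labels name no separate animals for the pools either, and the spread between pools may be technical.

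Intermediate filaments are rope-like polymers of coiled-coil proteins, and the set of filament genes that a cell uses changes with its lineage. Glial cells, ependymal cells and neural stem cells of this zone are known for type III filaments of Vim (vimentin) and Gfap (glial fibrillary acidic protein), to which the type IV proteins Nes (nestin) and Synm (synemin) co-assemble. Neurons use the neurofilament proteins of Nefl and Nefm with Ina (alpha-internexin), and Prph encodes peripherin, mostly of peripheral neurons. Lmna and Lmnb1 encode the A-type and B-type lamins that line the nuclear envelope.

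The core promoter stretches of the 7 members matched in the RefSeq table (build GRCm38.p6) are shown because they set the strong, broadly found Vim beside a member listed at 0 everywhere, Prph. Each stretch covers bases -40 to -11 before the RefSeq start of the gene. It is written 5′ to 3′ on the gene's strand, with any TATAAA or its reverse complement in capitals. The gene spans given further on can start elsewhere. The stretches of Vim, Gfap and Lmna lie inside those spans, and that of Nes overlaps its span. Lmna has 2 annotated starts.
Vim, chr2:13574271-13574300, plus strand: aacagtgtTATAAAagcagcgcccttggcg
Prph, chr15:99055134-99055163, plus strand: ccgcagggcTATAAAgccgccccgcatcgg
Gfap, chr11:102897211-102897240, minus strand: gcccagctccaccccctcaggctattcaat
Nes, chr3:87971053-87971082, plus strand: aataccctcgcttcagctcgctgctggaat
Synm, chr7:67759753-67759782, minus strand: accgggccactaagtggggaagctcgccag
Ina, chr19:47014641-47014670, plus strand: caaccccgcgccttaaaagccccgcacacc
Lmna, chr3:88503363-88503392, minus strand: gtacaggatggctcctttaagagcagtgga
Lmna, chr3:88493323-88493352, minus strand: gggagcagcacctcagtcccctgcccaacc

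The hexamer TATAAA was present in the stretches of Vim and Prph, and 2.66% of the 32851 promoters in the table hold it, on either strand, in the same 30 bases. In the 250 bases before the start, CCAAT (either strand) was found for Vim, Synm and 1 of the Lmna starts, against 33.8% of all promoters. GGGCGG (either strand) was found for Nes, Prph, Ina and the other Lmna start, against 32.7%. A match is a description of the letters only.

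Levels are given in FPKM, a unit scaled to transcript length and library size, which allows levels of different genes to be set side by side. A gene was counted as found in a library at FPKM of at least 1. An exact 0 in such a table can be a failed estimate, so genes without signal are described as listed at 0. Single cells had a median of 4986 genes found (2107 to 10169), and the pools had 10478 to 12870. In 7 libraries the smallest steps of the table placed the depth at about 6.21 M to 39.3 M fragments (M, mega), and elsewhere it is unknown. Cells 18 to 22 and cells 23 to 28 formed 2 sets of libraries that shared a low signal. Genes that were strong in 1 cell of a set (500 FPKM or more) and weak elsewhere in it (below 5% of that value) were nonetheless above 0 in 98.7% and 97.6% of the weak values. Those values had medians of 0.343% and 0.292% of the strong one. Outside the sets, in 17 cells, 15.1% of such values were above 0. Counts are therefore also given under a 2% limit, by which a value smaller than 2% of the largest in its set counts as 0.

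Each cell was described by the lineage marker list with the highest mean log2(FPKM + 1), from lists that hold none of the 10 genes. Endothelial markers led 8 cells (1, 2, 3, 6, 7, 8, 16 and 17), ependymal markers cells 9, 10 and 15, oligodendrocyte markers cells 4, 12 and 13, astrocyte markers cells 11 and 14, and choroid plexus markers cell 5. Microglial markers led cells 18 to 21 and neuroblast markers cells 22 to 28, so those 2 lists led only cells of the library sets. For them, cell type cannot be told apart from library set. Cell 21 was led by neuroblast markers under the 2% limit, and cell 22 by microglial markers when lists were ranked by the share of markers found. Cell 10 rested on 7 of 12 ependymal markers, at a mean of 2.96, close to the 2.74 of the neural stem cell list (4 of 8 markers found), which was scored apart from the lineage lists. Its astrocyte mean was 2.49, with 5 of 12 found. The stem cell list was at 2.93 in cell 9 (5 of 8) and 1.80 in cell 15 (2 of 8), and it was highest in cell 11, at 4.01 (5 of 8). Cell 3 carried the whole endothelial list and also 8 of the 12 markers of microglia. Mature neuron markers led no cell, and the most found in 1 cell were 3 of 10, in cell 12.

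**Figure D1:**
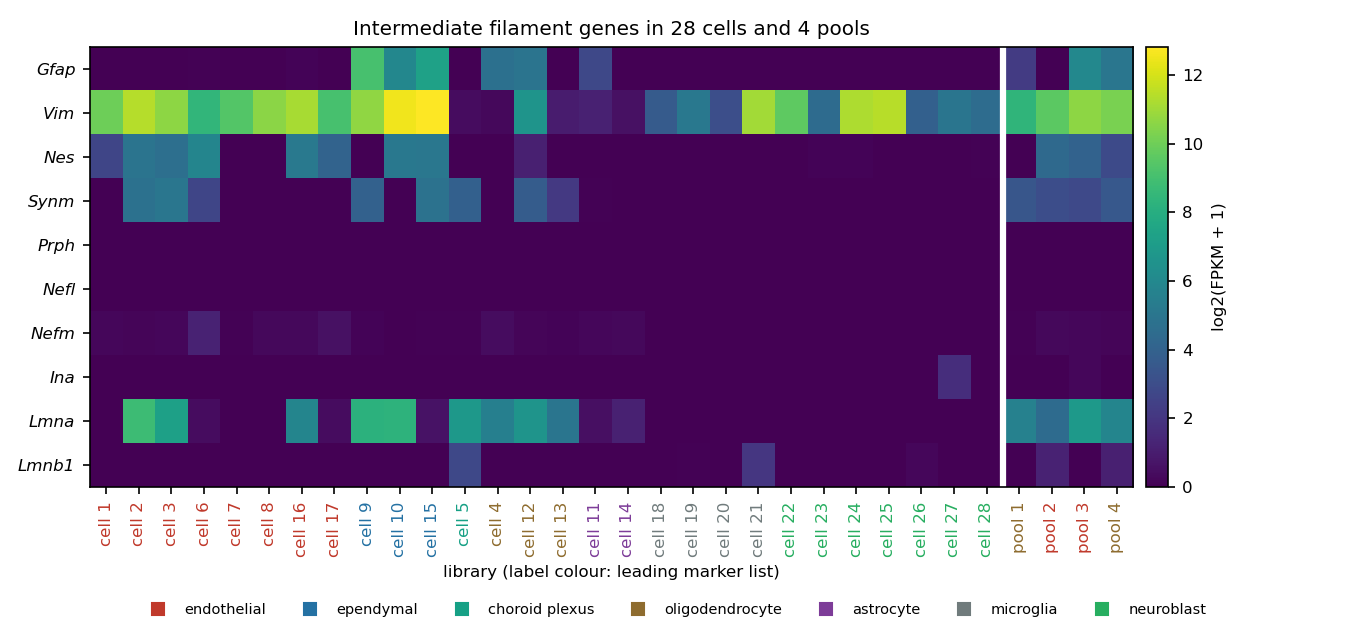
Colour gives log2(FPKM + 1) of each of the 10 genes (rows) in each of the 28 cells and 4 pools (columns), with cells ordered and labels coloured by leading marker list. Vim is the one gene with colour in most columns, and the rows of Prph and Nefl are empty.

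The 10 genes fell into 3 tiers. Vim was found in 24 of 28 cells. Lmna, Nes, Synm and Gfap were found in 10, 9, 8 and 6 cells. Lmnb1 was found in 2 cells, Nefm and Ina in 1 each, and Nefl and Prph in none. Over the 19783 genes found in at least 1 library the median was 5 cells, and 2.57% were found in at least as many cells as Vim. For Lmna, Nes, Synm and Gfap that share was 29.4%, 33.2%, 37.5% and 47.8%, so these 4 lay in the broad middle of all genes. By mean FPKM over cells, Vim ranked 95th, Lmna 2642nd, Gfap 4196th, Nes 8192nd and Synm 10066th.

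Vim (chromosome 2, 13573927 to 13582826, GRCm38) was found in 85.7% of cells (95% Clopper-Pearson interval 67.3% to 96.0%). Such intervals cover counting error only. Its lowest, median and highest values over the 28 cells were 0.211, 443 and 7195 FPKM. The values fell into separate ranges. In 15 cells Vim was at 344 to 7195 FPKM, in cell 12 at 99.0, in 7 cells at 7.51 to 34.0 and in 5 cells at 0.211 to 1.24.

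The 2 highest values of Vim were in cells led by ependymal markers. Cells 15, 10 and 9, led by these markers, had 7195, 6043 and 1658 FPKM. The 8 cells led by endothelial markers, which line brain vessels, had 1008, 2631, 1591, 344, 671, 1555, 2226 and 542 FPKM in cells 1, 2, 3, 6, 7, 8, 16 and 17. All 11 of these cells lay above the other cells of the 17 outside the sets, and the endothelial range overlapped that of the ependymal cells through cell 9.

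Vim was at most 1.24 FPKM in the cells led by oligodendrocyte, astrocyte and choroid plexus markers, except in cell 12. The cells led by oligodendrocyte markers had 0.211, 99.0 and 0.947 FPKM in cells 4, 12 and 13. The cells led by astrocyte markers had 1.24 and 0.466 FPKM in cells 11 and 14, and the cell led by choroid plexus markers had 0.339. Cell 12 stood apart from the other 2 cells led by oligodendrocyte markers, and it also had 7 of 12 astrocyte markers against 2 and 1 in cells 4 and 13.

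In the 2 library sets Vim was either high or near the level of the shared low signal. In the first set it was at 2069 and 807 FPKM in cells 21 and 22 and at 11.97, 34.0 and 7.51 in cells 18, 19 and 20. The latter were 0.579%, 1.64% and 0.363% of the value in cell 21. In the second set it was at 2735 and 2376 FPKM in cells 25 and 24 and at 21.3, 14.4, 30.9 and 22.3 in cells 23, 26, 27 and 28, which were 0.777%, 0.528%, 1.13% and 0.816% of the highest. Under the 2% limit Vim was found in 17 of 28 cells, with all 7 of these low cells at 0. Cells 18 to 20, led by microglial markers, then had no Vim. With leading lists taken without the limit, cell 21 of the microglial list and 3 of the 7 cells led by neuroblast markers had it. Under the limit cell 21 itself was led by neuroblast markers.

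**Figure D2:**
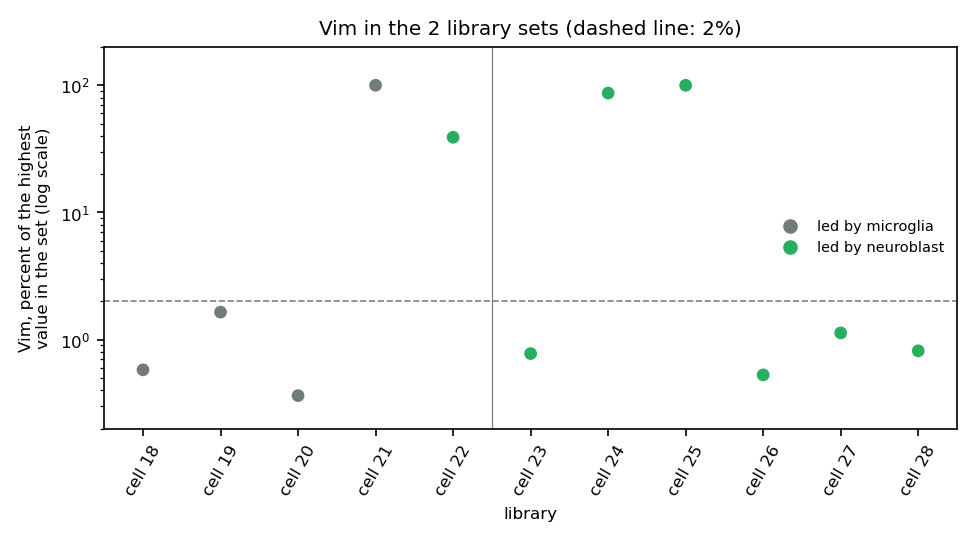
Points give Vim in each cell of the 2 library sets as a percent of the highest value in its set, on a log scale, coloured by leading marker list. Cells 21, 22, 24 and 25 lie at 39.0% or more, and the other 7 lie between 0.363% and 1.64%, below the dashed line at 2%.

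Gfap (chromosome 11, 102887336 to 102900912), the filament by which astrocytes and astrocyte-like stem cells are usually recognised, was found in 6 cells (21.4%, 8.30% to 41.0%). Its values there were 543, 159 and 59.4 FPKM in cells 9, 15 and 10, 29.97 and 25.9 in cells 12 and 4, and 5.89 in cell 11. The 3 highest were thus the 3 cells led by ependymal markers, the next 2 were led by oligodendrocyte markers, and 1 of the 2 cells led by astrocyte markers was lowest. The other such cell, cell 14, had 0.0261 FPKM with all 12 astrocyte markers found.

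The 3 cells led by ependymal markers also carried part of the astrocyte list, 7, 5 and 8 of 12 markers in cells 9, 10 and 15. Cells 12 and 4, led by oligodendrocyte markers, had 7 and 2 of 12. The part of these markers, and of the stem cell list in cells 9, 10 and 11, in the Gfap values was not tested. As a background, the 8 cells led by endothelial markers had Gfap at 0 to 0.0784 FPKM, and all 11 cells of the library sets were listed at 0.

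Nes (chromosome 3, 87971078 to 87980451), a large filament protein used to mark neural progenitors and also made by vessel cells, was found in 9 cells (32.1%, 15.9% to 52.4%). The highest was cell 6, at 55.3 FPKM. The cells led by endothelial markers had 5.35, 29.4, 25.05, 55.3, 35.6 and 15.9 FPKM in cells 1, 2, 3, 6, 16 and 17, and 0.0109 and 0.0285 in cells 7 and 8. So 6 of the 9 Nes cells were led by endothelial markers, and the list was as fully found in cells 7 and 8 (11 and 12 of 12) as in the Nes cells (9 to 12).

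The remaining Nes cells were 10 and 15, at 33.4 and 32.8 FPKM, both led by ependymal markers, and cell 12, at 1.17. In the third ependymal cell, cell 9, Nes was listed at 0. No cell led by astrocyte or neuroblast markers reached FPKM of 1, and the highest of these was cell 24 at 0.106. All 9 Nes cells also had Vim, at 99.0 FPKM or more. Of these 9, cells 10, 12 and 15 had Gfap as well.

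Synm (chromosome 7, 67730161 to 67759742), which cannot form filaments alone and links others to the cell cortex, was found in 8 cells (28.6%, 13.2% to 48.7%). Its values were 31.1, 26.1 and 5.39 FPKM in cells 3, 2 and 6, led by endothelial markers, and 27.02 and 14.6 in cells 15 and 9, led by ependymal markers. It was at 14.5 FPKM in cell 5, led by choroid plexus markers, and at 12.3 and 3.41 in cells 12 and 13, led by oligodendrocyte markers. The levels of these lists overlapped. In 2 of the 8 cells, 5 and 13, Synm was found without Vim, the type III partner. Vim was at 0.339 and 0.947 FPKM there, so cell 13 lay just under the limit of 1. Exons of Synm overlap those of Ttc23 on the other strand, and the strand setting is not given. Ttc23 was found in 2 of the 8 Synm cells, 5 and 6, and in 2 of the other 20.

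**Figure D3:**
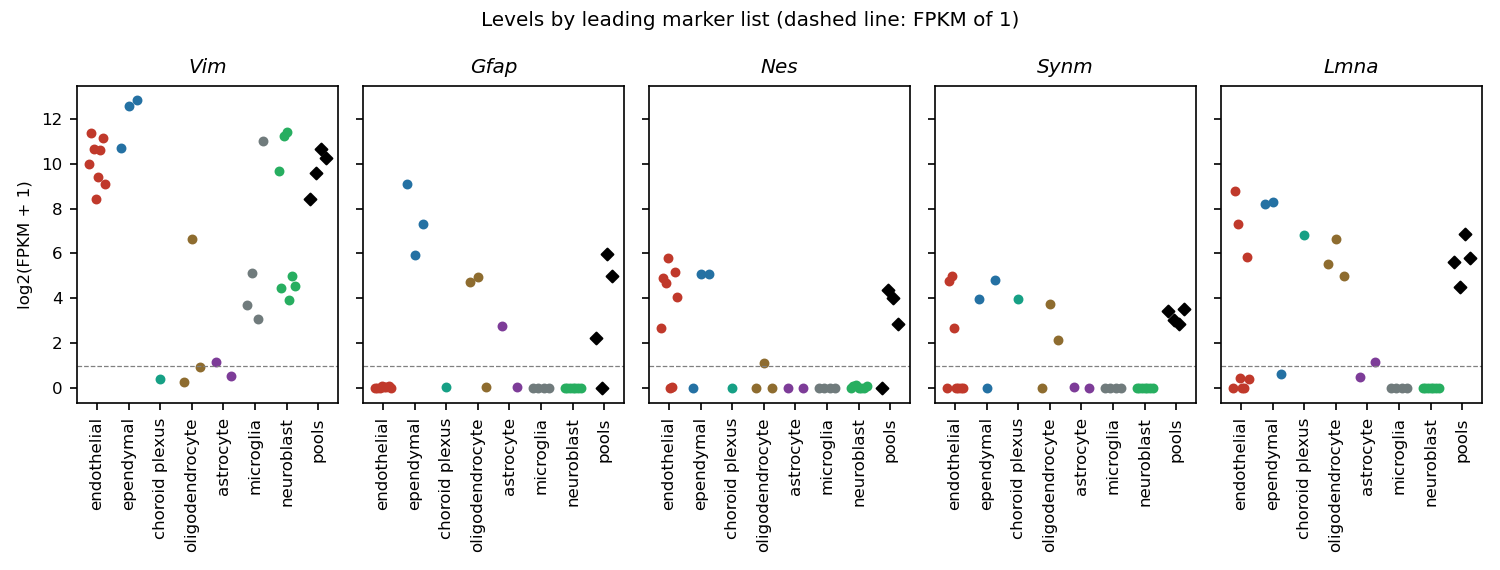
Points give log2(FPKM + 1) of Vim, Gfap, Nes, Synm and Lmna in each cell, placed by leading marker list, and in the 4 pools (black diamonds). The dashed line marks FPKM of 1, and Gfap lies above it in all 3 ependymal cells and in no endothelial, microglial or neuroblast cell.

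The neuronal filament genes were at or near 0. Prph (chromosome 15, 99055174 to 99058978) was listed at 0 in all 32 libraries. Nefl (chromosome 14, 68083863 to 68089095) was listed at 0 in all cells and in pools 1 to 3, with 0.0181 FPKM in pool 4. For 0 of 28 cells found the upper Clopper-Pearson bound is 12.3%, which takes each listed 0 as not found. Ina (chromosome 19, 47014698 to 47025327) was found in cell 27 alone, at 2.23 FPKM, and was at most 0.0267 FPKM in the other cells. Cell 27 was led by neuroblast markers, with 1 of 10 mature neuron markers. Exons of Ina overlap those of Nt5c2 on the other strand, and Nt5c2 was listed at 0 in cell 27.

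Nefm (chromosome 14, 68082590 to 68124846) differed from its partner Nefl. It was above 0 in 23 cells and all 4 pools, but reached FPKM of 1 only in cell 6, at 1.37. Its median over cells was 0.0521 FPKM, and the next highest value was 0.470, in cell 17. Cell 6 was led by endothelial markers and had 1 of 10 mature neuron markers. The annotated span of Nefm contains the whole of Nefl on the opposite strand, with overlapping exons, and the strand setting is not given. Low values of Nefm and the values of Nefl listed at 0 are thus both uncertain, and so is the difference between them.

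The lamins differed from each other. Lmna (chromosome 3, 88481148 to 88509956) was found in 10 cells (35.7%, 18.6% to 55.9%). Its values were 438, 155 and 56.0 FPKM in cells 2, 3 and 16, led by endothelial markers, and 308 and 296 in cells 10 and 9, led by ependymal markers. It was at 112 FPKM in cell 5, at 97.99, 44.5 and 31.0 in cells 12, 4 and 13, and at 1.23 in cell 14. All 3 cells led by oligodendrocyte markers had it, against 3 of 8 led by endothelial markers, where the other 5 were at 0 to 0.361 FPKM. Cells 4, 12 and 13 had 8368, 9079 and 6803 genes found, and the 8 cells led by endothelial markers had 3062 to 6979. In all 11 cells of the 2 library sets, with a median of 3466 genes found, Lmna was listed at 0. The part of detection in these differences was not tested.

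Lmnb1 (chromosome 18, 56707813 to 56753424) was found in 2 cells (7.14%, 0.877% to 23.5%). It was at 5.82 FPKM in cell 5 and 3.10 FPKM in cell 21, and at most 0.155 in the other cells. Cell 21 had 7 of 8 proliferation markers, such as Top2a and Birc5, at a mean log2(FPKM + 1) of 7.04, the highest of the cells. Cell 5 had 2 of the 8, at a mean of 0.905, and cell 14, with 3 of 8 at a mean of 3.02, had Lmnb1 listed at 0. Cells 18, 19 and 20 had 5 of 8, with means of 1.80, 3.54 and 2.21, and cell 22 had 4, and their Lmnb1 was at 0, 0.0480, 0 and 0.0124 FPKM. These cells are of the same library set as cell 21. Cell 5 was the only cell with both lamins.

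Within a cell, Vim made up most of the summed FPKM of the 10 genes wherever it was high. Its share was 66.0% to 100% in the 15 cells with at least 344 FPKM. In cell 9 Gfap took 21.6% and Lmna 11.8%, and in cell 6 Nes took 13.6%. The share of Vim was also 93.3% to 100% in the 7 cells of the library sets with 7.51 to 34.0 FPKM. Those Vim values count as 0 under the 2% limit. In cell 12 the share was 41.1%, and Lmna took 40.7%. In the 5 cells with 0.211 to 1.24 FPKM the make-up was led by other members. Gfap made up 75.6% in cell 11, and Lmna made up 84.4%, 62.7%, 87.4% and 63.6% in cells 5, 4, 13 and 14. The summed FPKM differed as much, from 1.93 in cell 14 and 7.79 in cell 11 to 7415 in cell 15.

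**Figure D4:**
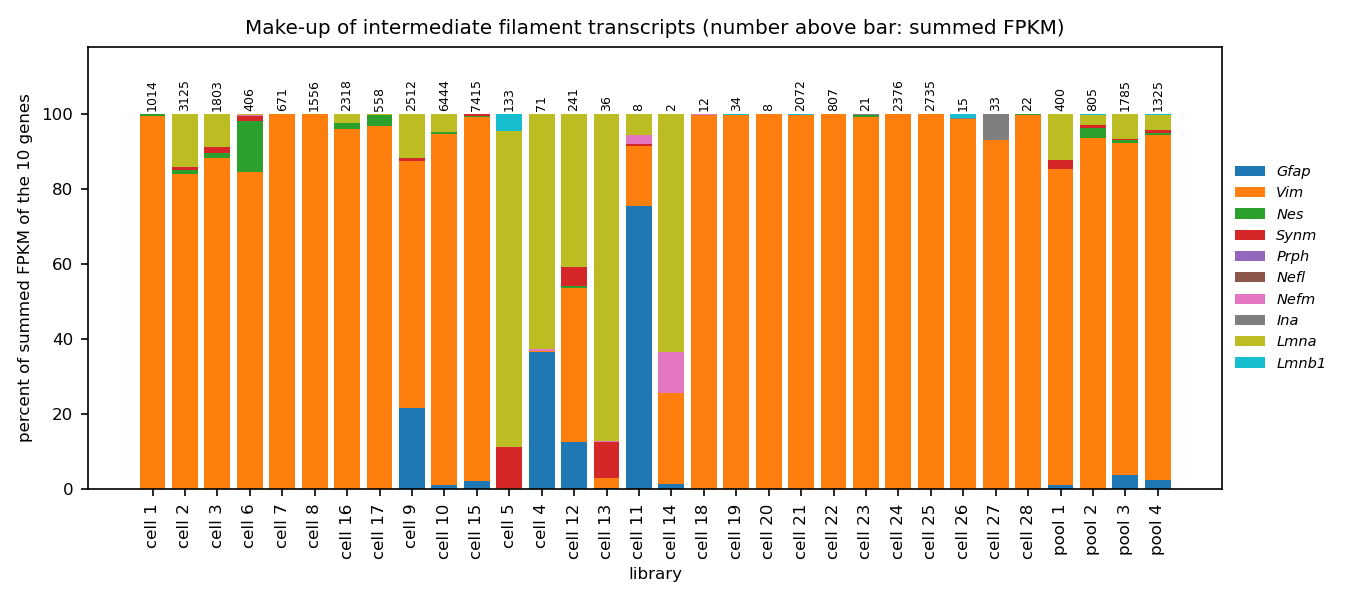
Stacked bars give the percent that each gene makes up of the summed FPKM of the 10 genes in each library, with that sum above the bar. Vim fills most of the bar in the endothelial, ependymal, microglial and neuroblast cells and in the 4 pools, while Lmna or Gfap leads in cells 4, 5, 11, 13 and 14.

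Every cell had at least 1 of the 10 genes at FPKM of at least 1, and 22 of 28 did under the 2% limit. At least 3 were found in 9 cells, and the most were 5, in cell 12 (Gfap, Vim, Nes, Synm and Lmna). The number of genes found in all moved with this count. The 9 cells with at least 3 members had 5236 to 10169 genes found (median 6815), the 7 cells with 2 members had 2424 to 8368 (median 5287), and the 12 cells with 1 member had 2107 to 5056 (median 3815). Of the 12 cells with 1 member, only 3 (cells 7, 8 and 14) lay outside the 2 library sets. The 11 cells of the sets had a median of 3466 genes found, and the 17 other cells had 5932. The part of this depth of detection and of the library sets in the counts was not tested.

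Synm and Lmna were the pair with the highest rank correlation among the 5 members found in at least 6 cells, with Spearman's rho of 0.739 over the 28 cells and 0.491 over the 17 cells outside the sets. They were found together in 6 cells, of 8 with Synm and 10 with Lmna. Gfap and Lmna had 0.614 over 28 cells but 0.214 over 17, and Vim and Nes had 0.477 and 0.608. Nes and Lmna lie 501 kb apart on chromosome 3, shared 5 cells, and had 0.415 and 0.101. These values are descriptions over cells of 1 sample that share library sets and depth, and most values of Gfap, Nes, Synm and Lmna in them are at or near 0.

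The genes ranked most like each member by Spearman's rho over the 28 cells, of 6726 genes found in at least 6 cells, were named by a fixed rule. For Gfap they were Nrbp2 (0.884), Ccdc24 (0.877) and Hspa2 (0.876), the last a heat shock protein found in 7 cells that included all 6 Gfap cells. For Nes they were Gimap6 (0.765), Grasp (0.755) and Hspb1 (0.746), a small heat shock protein that binds filaments. For Lmna they were Ssr4 (0.913), Lrrc59 (0.910) and Stx6 (0.886), and for Synm they were Mrpl12 (0.922), Ccdc115 (0.886) and Sptlc2 (0.821). For Vim they were Rpl9 (0.629), a ribosomal protein gene whose copies make its level uncertain, Sptan1 (0.600), a spectrin of the membrane skeleton, and Gpcpd1 (0.571). Of these 15 genes, 4 were again among the leading 3 by Pearson correlation of log2(FPKM + 1), namely Hspa2, Sptan1, Sptlc2 and Stx6. Over the 17 cells outside the sets 2 were, Hspa2 and Ccdc115. Joint detection differed between pairs: Stx6 and Lmna were found together in 9 cells and Sptlc2 and Synm in 8. Mrpl12 and Synm shared 5 cells, Ccdc24 and Gfap 5, and Grasp and Nes 4. Ranks of values below FPKM of 1 thus enter these correlations.

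By mean FPKM over the pools of 10 cells, Vim, Lmna, Gfap, Nes and Synm kept the order of the means over cells. Of single pools only pool 3 kept it. Synm was above Gfap and Nes in pool 1, above Gfap in pool 2 and above Nes in pool 4. Vim was at 338, 755, 1583 and 1220 FPKM in pools 1 to 4 (974 ± 543, SD, n = 4) and made up 84.4% to 93.8% of the summed FPKM of the 10 genes. Lmna was at 48.9, 21.7, 117 and 55.3 FPKM (60.6 ± 40.1). Synm was at 9.89, 7.19, 6.21 and 10.5 FPKM (8.44 ± 2.07), the smallest spread for its mean among the members found in any pool. In pools, fewer cells of a type and less RNA per cell cannot be told apart.

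Gfap and Nes had the widest spread between pools in log2(FPKM + 1), with SDs of 2.72 and 1.98. Gfap was at 3.67, 0, 62.6 and 31.3 FPKM in pools 1 to 4 (24.4 ± 29.1). Nes was at 0.0105, 19.5, 15.4 and 6.36 FPKM (10.3 ± 8.80). Pool 2 thus had Gfap listed at 0 and the highest Nes, and pool 1 was lowest for Nes.

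Endothelial markers were high in the same 2 pools as Nes. They had means of 1.304, 8.03, 8.55 and 1.304 in log2(FPKM + 1) in pools 1 to 4, with 3, 12, 12 and 4 of 12 found, and the 2 pools highest in Nes were the 2 with all 12. Ependymal markers had means of 2.45, 3.81, 4.84 and 5.23, with 8, 11, 12 and 11 of 12 found, and astrocyte markers had means of 1.38, 1.62, 2.50 and 6.98, with 4, 7, 8 and 12 of 12 found. The order of Gfap over the pools was not that of either list. The part of these markers in the values was not tested.

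Lmnb1 was found in pools 2 and 4, at 1.31 and 1.17 FPKM, and was listed at 0 in pools 1 and 3. Proliferation markers found in pools 1 to 4 were 2, 3, 1 and 5 of 8, so the 2 pools with Lmnb1 had the larger numbers. Both Lmnb1 values lay just over the limit of 1, and the part of proliferation in them was not tested. Nefm was at 0.0436 to 0.193 FPKM, Ina at 0 to 0.169, and neither reached FPKM of 1 in any pool.

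The ratio of pools to cells was taken as the log2 of 2 means, each with a pseudocount of 1 FPKM added, a scale that understates differences of low genes. Of the 8 members found in at least 1 library, 0 were at least 2-fold higher and 0 at least 2-fold lower in the pools. Over all 19783 such genes, 12.9% were higher and 13.9% lower by that much. The median over the members was 0.060 and over all genes 0.064. These are descriptions without a test.

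Synm was the one member higher in each of the 4 pools than in the mean of cells, with a ratio of 0.70 (0.31 to 0.99 in single pools). It passed 2-fold when libraries were rescaled, at 1.15 by upper quartile. Against the 17 cells outside the sets its ratio was 0.083. Lmna had 0.14, with -1.31 in pool 2 and 1.07 in pool 3. Nes had 0.27, with -3.21 in pool 1 and 1.13 in pool 2. Vim had -0.30, with -1.83 in pool 1 and 0.40 in pool 3.

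Gfap had a ratio of -0.26, with -2.70, -4.93, 1.07 and 0.089 in pools 1 to 4. This rested on single libraries: without pool 3 it was -1.26, and without cell 9, which held the highest value, it was 1.16. Lmnb1 had 0.29, and Nefm and Ina had -0.016 and -0.046, at levels near 0 in both groups. For Vim, Gfap, Nes, Lmna and Lmnb1 the pools lay on both sides of the mean of cells.

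**Figure D5:**
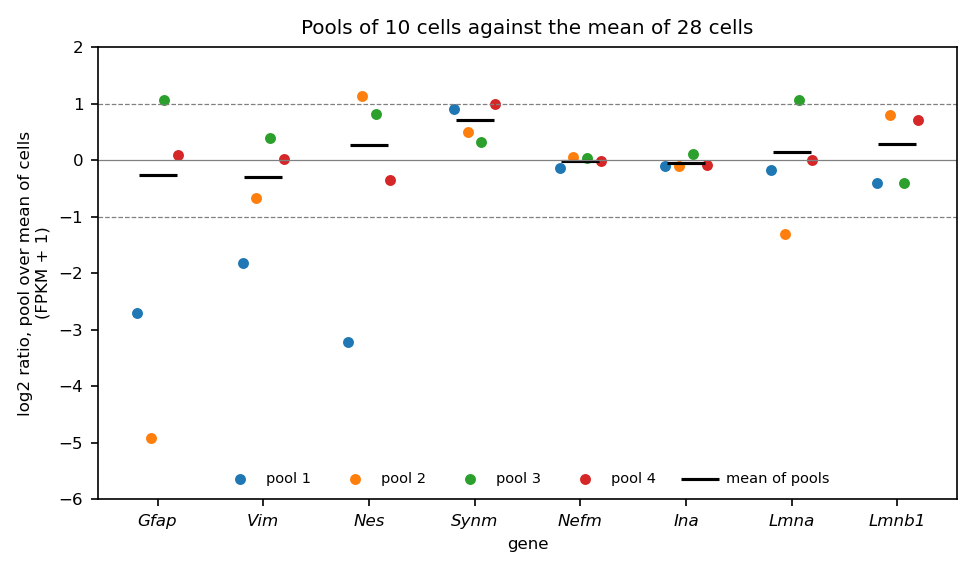
Points give the log2 ratio of each pool over the mean of the 28 cells for the 8 members found in at least 1 library, and black bars give the ratio of the mean of the pools. The pools of Gfap spread from -4.93 to 1.07 and those of Synm from 0.31 to 0.99, and dashed lines mark 2-fold.

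The other filament genes and the partners of filaments come from lists written down with the members. Of the 10 such genes at least 2-fold higher in the pools, 9 fell under 2-fold when 1 pool was left out, and Des was the exception. The median ratio was 0.60 for the other filament genes, 0.32 for keratins, 0.11 for plakins and linkers, 0.15 for nuclear envelope partners and 1.13 for the genes that process lamins, against 0.064 over all genes. Counts of list genes past 2-fold are to be read against the 12.9% higher and 13.9% lower over all genes, and Krt18 stands in 2 of the lists. Of the other compared genes, Krt7, Krt8, Krt10 and Krt15 also stand in those 2 lists. The medians of the other filament genes and of keratins are thus not separate. Of 16 other filament genes, 7 were found in at least 1 cell and 8 in at least 1 pool. The 9 found in at least 1 library could be compared, and 3 of them were at least 2-fold higher and 0 lower in pools. Over all 38740 symbols, 19783 were found in at least 1 library, and 95.3% of these in at least 1 cell. Counts found in this and the other lists are to be read beside that share. Lmnb2, the second B-type lamin, was found in 3 cells, highest in cell 9 at 30.3 FPKM, and was at 5.59, 12.6, 6.56 and 0.401 FPKM in pools 1 to 4, with a ratio of 1.38, or 0.89 without pool 2. Des (desmin), the filament of muscle and mural cells, was found in no cell, with at most 0.0169 FPKM, but reached 22.4 FPKM in pool 1 and 4.81 in pool 2, with 0.0213 in pool 3 and 0 in pool 4. Its ratio was 2.96, and 1.38 without pool 1. Pericyte and smooth muscle markers were found in those pools at 7, 8, 2 and 4 of 10. Nefh, the heavy neurofilament, was found in pool 1 alone, at 3.26 FPKM.

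Keratins, the epithelial filament genes, were listed under 51 symbols, of which 8 were found in a cell and 7 in a pool, and of the 10 that could be compared 1 was at least 2-fold higher and 1 lower in pools, near the share over all genes. Krt8 and Krt18, partners in simple epithelia, had their highest values in cell 5, led by choroid plexus markers, at 70.5 and 153 FPKM. In pool 1 they were at 5.95 and 47.4 FPKM, in pool 4 at 11.4 and 40.7, and in pools 2 and 3 at most at 0.140. Krt8 was found in that cell alone and Krt18 in 1 further cell. The ratio of Krt18 was 1.44, with 0.78 without pool 1 and 0.98 without pool 4. Krt73, found in cell 23 alone, had -1.24, or -0.023 without that cell. Krt10 was found in 3 cells, with at most 11.5 FPKM. Bfsp2, a filament gene of the lens, had 119 FPKM in cell 12 and was found in 2 cells.

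Over its 11 genes, the list of plakins and linkers had a median of 6 cells found. The median was 5 over the 19783 genes found in at least 1 library. Of 11 plakins and linkers, 9 were found in at least 1 cell, and of the 10 that could be compared 2 were at least 2-fold higher in pools and 0 lower, against 12.9% and 13.9% over all genes. The 3 most widely found were Macf1 in 23 cells, Pkp4 in 18 and Dst in 16. Macf1 joins actin and microtubules, and Dst ties filaments to other structures. Plec, which encodes the filament linker plectin, was found in 7. The 2 higher in pools were the small heat shock genes Cryab (1.54) and Hspb1 (1.42). Hspb1 was at 27.6, 1262, 313 and 2.18 FPKM in pools 1 to 4, and without pool 2 its ratio was -0.38. Cryab was at 931, 88.3, 0.114 and 482 FPKM, and its ratio was 0.56 without pool 1.

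Partners of lamins at the nuclear envelope were all found in at least 1 cell (13 of 13), with 2 higher and 1 lower in pools, about the share over all genes. Emd (emerin), which binds lamins, was found in 22 cells, among them cells where Lmna was listed at 0. Syne2 and Banf1 were found in 12 and 11 cells. Banf1 had a ratio of 1.24 and Tor1aip1 1.35, which were 0.79 and 0.60 without pool 2, while Lemd3 had -1.59, or -0.33 without cell 26. Of 4 genes that process prelamin A, the protease gene Zmpste24 was found in 10 cells and had a ratio of 0.022. The others, Icmt, Fntb and Rce1, were found in 6, 5 and 3 cells and had ratios of 1.20, 1.05 and 1.20. Icmt was at 51.3, 35.4, 124 and 2.996 FPKM in pools 1 to 4 and had 0.38 without pool 3. Without pool 1, Fntb had 0.13 and Rce1 0.87, and Fntb had -0.21 under upper quartile scaling.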

How the data were processed

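Per the submitters' processing notes, reads from 28 single cells and 4 pools were processed with TopHat 1.41 and Cufflinks 2.02 on mm9. The authors deposited the FPKM values of all libraries in a single table. The loci match GRCm38 in place of mm9: 96.0% of 39011 lines carry a GENCODE M21 gene ID, 99.7% of them at a place that overlaps that gene on GRCm38, and positions are given as GRCm38. For read layout, strand setting and annotation release: not given in the sources used here.

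Values of lines sharing a symbol were added, and 27 symbols turned into dates were restored. A gene was found at FPKM of at least 1, the pseudocount was 1, and 2-fold was the limit for a difference. No 2 libraries were identical. Members and lists were chosen with earlier results of these data known. Depth came from the modal step of 2342 genes of 1 exon and at least 800 bp, with an assumed fragment length of 200 bp. A cell was led by the list of highest mean log2(FPKM + 1) among those with enough markers found. Named genes were the members, the 3 genes of highest Spearman correlation per member found in at least 6 cells (predicted genes, microRNAs, small nucleolar RNAs and pseudogenes left out), the 3 most widely found of each pathway list and those past 2-fold. Further list members named for their levels (Plec, Nefh, Krt8) were picked after their values were seen, as were the ranges of Vim, the promoter stretch with its motifs, and 3 alternatives. Computations ran in Python 3.11.15 with numpy 2.4.6, pandas 2.3.3 and scipy 1.17.1, and were tested on simulated data. Alternatives changed the found limit, pseudocount, scaling, averaging, cells, pools and the 2% limit. The 5 figures were drawn with matplotlib.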

Additional observations from a re-analysis of the deposited data

Results flagged for a closer look

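Single pools stood far from the other 3 for 9 of 40 genes tested (the filament genes and the listed partners), or 22.5%. By the same measure 23.8% of all 17069 genes tested stood out, so the share among these genes was near that of all genes, and both were well over the 1 in 20 that chance nominally gives. None of the 9 was among the 10 filament genes chosen by symbol. The partners were added to this screen after the values of the 10 genes had been seen. In pool 1 these were Nefh at 3.26 FPKM, Dsp (desmoplakin) at 3.08, Krt1 at 2.92 and Krt28 at 1.58. In pool 3 they were Syne2 at 248 FPKM, Sun1 at 21.9 and Krt78 at 1.82. In pool 2 it was Tmpo at 18.1 FPKM, and in pool 4 Krt15 at 42.6. Krt15 was also at 257 FPKM in cell 15 and at FPKM of 1 in no other cell.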

How the results depend on the processing

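No paired analysis was possible because cells and pools share only a number in their titles and no test was made. With found set at FPKM of at least 10, 5 in place of 8 members were found in a cell, and at 0.1 the cells with at least 3 members were 15 in place of 9, Nefm then being found in 13. Against 0 members 2-fold higher in the pools, 1 was (Synm) after rescaling to the same sum or to the upper quartile, 1 (Gfap) without the highest cell of each member, an alternative added after the data were seen, and 5 (Gfap, Vim, Nes, Synm and Lmna) by the mean of log2 values. Of all genes (19783 in the main setting), 2545 were 2-fold higher in the main setting. That number was 3379 after rescaling to the same sum, 3192 by upper quartile and 9599 by the mean of log2 values. For the alternative without the highest cell no such number is given. Members 2-fold lower were 0 to 1 with 1 pool left out, the 1 being Gfap without pool 3. Of all genes 3410 were lower without pool 3, against 2749 in the main setting. The median ratio of members was 1.74 by the mean of log2 values, where the median of all genes moved to 0.95. It was -0.25 against the 17 cells outside the sets and 0.54 without the highest cell of each member. The split of all genes past 2-fold was 48.1% higher, and 60.9% after rescaling to the same sum, 36.6% by upper quartile, 25.3% with a pseudocount of 10, 58.3% against the 17 cells and 97.4% by the mean of log2 values. Without 1 pool it was 36.2% to 49.2%. With no filter on low values, 6.57% of genes were higher and 7.10% lower. The leading list was the same in 27 of 28 cells under both alternatives. Low FPKM and unknown depth limit statements on Nefm, Ina, Lmnb1, Nefl and Prph.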
